A study of Homo sapiens with 12 samples.

Results

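The genes described here encode 10 dual-specificity phosphatases (DUSPs) that act on mitogen-activated protein kinases (MAPK) or on their signalling, namely DUSP1, DUSP2, DUSP4, DUSP5, DUSP6, DUSP7, DUSP8, DUSP10, DUSP16 and DUSP22. They were chosen by name and form 10 of the 43735 genes counted. Their mRNA was measured by RNA sequencing in MM1S and MM1R, multiple myeloma cell lines from a single patient, of which MM1S is sensitive and MM1R resistant to glucocorticoids (GC). Each line was left untreated (UT) or was exposed to 1 µM withaferin A (WA), a plant steroidal lactone that binds cysteines of proteins covalently, for 3 h. Every group held 3 cultures, which were passages 16, 22 and 23 of MM1S and passages 4, 6 and 7 of MM1R, with 1 untreated and 1 WA culture at each passage. All 12 libraries came from cells kept in the same medium, no vehicle is named for the untreated cultures, and the lines shared no passage, so that line and passage cannot be told apart. Each line is a single cell line, so that the comparison of MM1R with MM1S holds for these lines and not for GC resistance in general.

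MAPK carry a signal only while a threonine and a tyrosine of their activation loop are both phosphorylated, and a DUSP removes both phosphates. Many DUSP genes are themselves switched on within minutes to hours by MAPK signalling or by stress, which makes them a negative feedback on ERK (growth signals) or on JNK and p38 (stress signals). The family falls into inducible phosphatases of the nucleus (DUSP1, DUSP2, DUSP4, DUSP5), ERK phosphatases of the cytoplasm (DUSP6, DUSP7), phosphatases that prefer JNK and p38 (DUSP8, DUSP10, DUSP16) and small atypical enzymes that lack the MAPK-binding domain (DUSP22). In plasma cells and B cells DUSP genes are known as feedback genes downstream of growth factor and antigen receptors.

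The libraries held 17625110 to 19368343 counted reads. All 9 plasma cell markers examined, such as SDC1, TNFRSF17 and IRF4, exceeded 1 CPM (the reads of a gene per fixed number of reads in the library) in every library, with a summed level of 9950 to 18700 CPM. The T cell markers CD3D and CD3G had at most 1 read, whereas CD3E had 63 to 211. The myeloid markers CD14, LYZ and CSF1R had at most 7 reads in any library. HBA1 had at most 1 read against 63 to 178 for HBB, and COL1A2 and COL3A1 had 0 against 9 to 294 for COL1A1. The part of these reads in the results was not tested. No replicate was a copy of another, since the counts of replicates differed more than sampling allows, with a chi-square of 8.74 to 48.7 per degree of freedom. The sources name different passages but no separate thaws, so that p-values measure the spread between these cultures, which may be partly technical.

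The promoter stretches of the members differ in the letters they hold. RefSeq sequence (GRCh38.p14) of the 250 bases before an annotated start was available for 8 of the 10 members, with 9 starts. The sequences of members that rose with WA (DUSP1, DUSP10, DUSP22) are shown with that of DUSP8, which shares a motif with DUSP1, and capitals mark the letters TGACGTCA (the cAMP response element, CRE) or its first letters TGACGT.
DUSP1 (chr5:172771196-172771445, minus strand): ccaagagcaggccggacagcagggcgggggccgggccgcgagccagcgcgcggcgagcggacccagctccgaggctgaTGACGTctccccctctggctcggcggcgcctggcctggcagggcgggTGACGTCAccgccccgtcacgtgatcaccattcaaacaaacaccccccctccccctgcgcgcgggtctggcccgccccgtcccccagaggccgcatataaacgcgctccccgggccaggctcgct
DUSP8 (chr11:1572272-1572521, minus strand): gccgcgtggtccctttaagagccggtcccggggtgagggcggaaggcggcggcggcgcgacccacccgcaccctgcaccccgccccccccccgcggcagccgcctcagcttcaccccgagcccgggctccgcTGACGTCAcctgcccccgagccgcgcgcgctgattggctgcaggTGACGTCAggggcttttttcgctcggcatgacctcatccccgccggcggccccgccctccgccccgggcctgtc
DUSP10, inner start (chr1:221736901-221737150, minus strand): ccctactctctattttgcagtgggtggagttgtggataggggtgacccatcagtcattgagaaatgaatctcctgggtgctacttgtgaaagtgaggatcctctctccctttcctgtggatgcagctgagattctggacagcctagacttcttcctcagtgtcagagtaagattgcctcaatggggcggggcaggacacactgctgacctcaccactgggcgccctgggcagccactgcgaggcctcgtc
DUSP10, outer start (chr1:221742090-221742339, minus strand): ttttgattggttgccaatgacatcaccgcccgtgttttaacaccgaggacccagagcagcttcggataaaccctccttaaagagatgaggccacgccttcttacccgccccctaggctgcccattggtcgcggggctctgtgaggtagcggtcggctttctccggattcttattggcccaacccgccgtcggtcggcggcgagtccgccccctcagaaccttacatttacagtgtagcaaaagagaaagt
DUSP22 (chr6:292237-292486, plus strand): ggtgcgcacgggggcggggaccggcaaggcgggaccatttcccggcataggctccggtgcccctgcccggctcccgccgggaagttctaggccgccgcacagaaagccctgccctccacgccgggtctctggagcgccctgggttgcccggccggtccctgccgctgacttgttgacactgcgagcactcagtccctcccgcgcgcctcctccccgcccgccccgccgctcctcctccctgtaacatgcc
The letters TGACGTCA began 125 bases before the start of DUSP1, and at 118 and 74 bases before the start of DUSP8. TGACGT occurred at 1 further place in DUSP1, 172 bases before the start, and otherwise lay within TGACGTCA. Of all 35116 promoter stretches searched on both strands, 1.65% held TGACGTCA and 7.1% held TGACGT. No member stretch held GAANNTTC or TTCNNGAA (pairs of heat shock units, in 5.78% and 6.62% of all stretches), TGACTCA (AP-1, 4.2%), GGGANTTCC (NF-kB, 1.59%) or TGATGCAA (ATF4, 0.772%). A match describes the letters only, and the absence of one concerns this window alone.

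Levels of the members spanned the range from strongly transcribed genes to genes with hardly a read. On a scale of CPM per kilobase of exon, untreated MM1S cultures held DUSP5 at 120 ± 6.9 (SD, n = 3), DUSP22 at 36.2 ± 4.14, DUSP4 at 27.7 ± 4.76 and DUSP6 at 13.9 ± 3.5. DUSP1 at 9.2 ± 3.06 and DUSP7 at 8.67 ± 1.22 followed, neighbours that did not differ beyond their spread. DUSP2 (3.96 ± 0.909) and DUSP10 (2.58 ± 0.72) came next, and DUSP16 lay at 0.0591 ± 0.0379. In untreated MM1R the leading gene was again DUSP5 (210 ± 19.9), but DUSP4 (51.6 ± 3.64) lay above DUSP22 (34.1 ± 1.76). DUSP6 (21.4 ± 4.96), DUSP7 (13.5 ± 0.778), DUSP1 (9.15 ± 4.1), DUSP2 (8.47 ± 0.462), DUSP10 (1.85 ± 1.13) and DUSP16 (0.0402 ± 0.0247) followed, with DUSP1 and DUSP2 within each other's spread. DUSP8 had 0 to 3 reads in every library and was too low to test. In bulk RNA fewer cells with a transcript and less transcript per cell cannot be told apart.

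**Figure D1:**
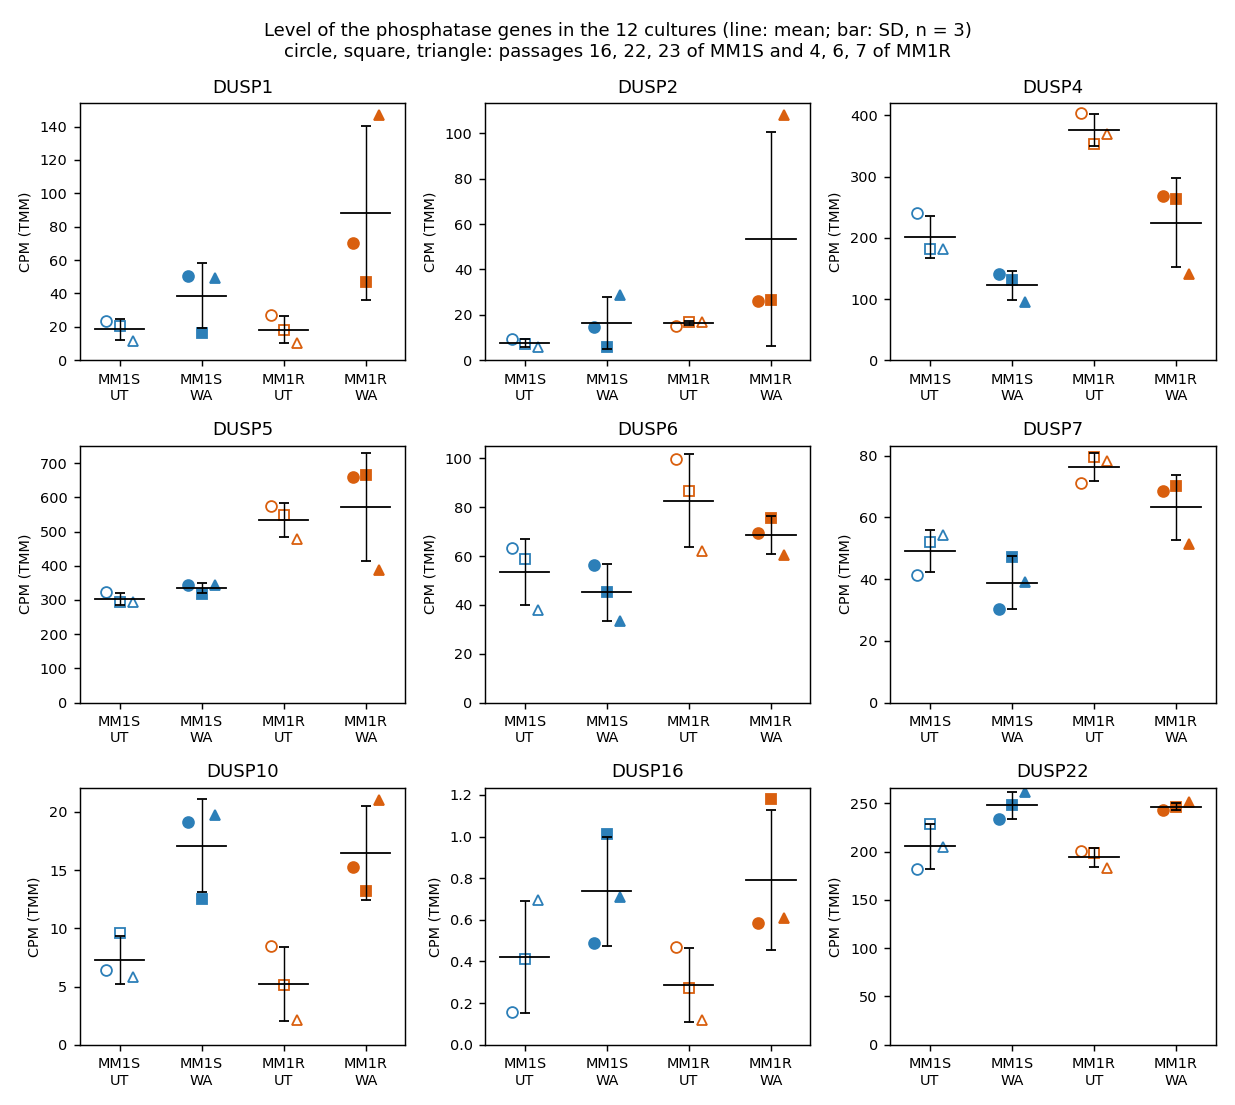
Level of the 9 testable phosphatase genes in each culture, in CPM scaled by TMM on linear axes that start at 0; open symbols are untreated and filled symbols WA cultures, lines are means and bars the SD of 3 cultures. DUSP1, DUSP2, DUSP10, DUSP16 and DUSP22 of WA-treated MM1R lie above the untreated cultures, and DUSP4 and DUSP7 lie below them. The share of all genes whose groups do not overlap was not counted.

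The first question was whether WA changed the phosphatase mRNAs within 3 h in GC-resistant MM1R cells. Of the 9 members tested, 3 rose (DUSP1, DUSP10 and DUSP22), 1 fell (DUSP4) and 5 did not pass an adjusted p of 0.05 in the quasi-likelihood test of edgeR. Over all 14085 genes tested, 14.0% passed, with 7.55% higher and 6.46% lower. The median log2 fold change of the 9 members was 0.35, against 0.01 over all genes. Without both cultures of passage 7, which left 2 cultures in each MM1R group, 0 of the 9 members passed, against 4.45% of all genes tested. With passage as replicate block 6 members passed with edgeR (DUSP2 and DUSP16 in addition) and 4 with DESeq2, where 29.1% and 24.1% of all genes did.

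In GC-sensitive MM1S cells 1 of the 9 members passed the same limit, which was DUSP10 (higher). Over all genes, 10.5% passed in either direction and 6.25% were higher. With passage as replicate block 4 members passed with edgeR (DUSP4, DUSP7, DUSP10 and DUSP22), where 24.1% of all genes did. With DESeq2 and the block 3 passed, the same but for DUSP10, where 21.4% of all genes did. The median log2 fold change of the members was 0.27, against 0.01 over all genes. All 9 members had the same sign of change in both lines, although most did not pass in MM1S. The share of all genes with the same sign in both lines was not counted, so that this describes the members only. No member differed between the lines in its response to WA when the difference itself was tested. In that test 0 of all genes passed by edgeR (0%), 97 had an unadjusted p under 0.05, 0 of them members, and DESeq2 called 1 gene, which was no member.

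**Figure D2:**
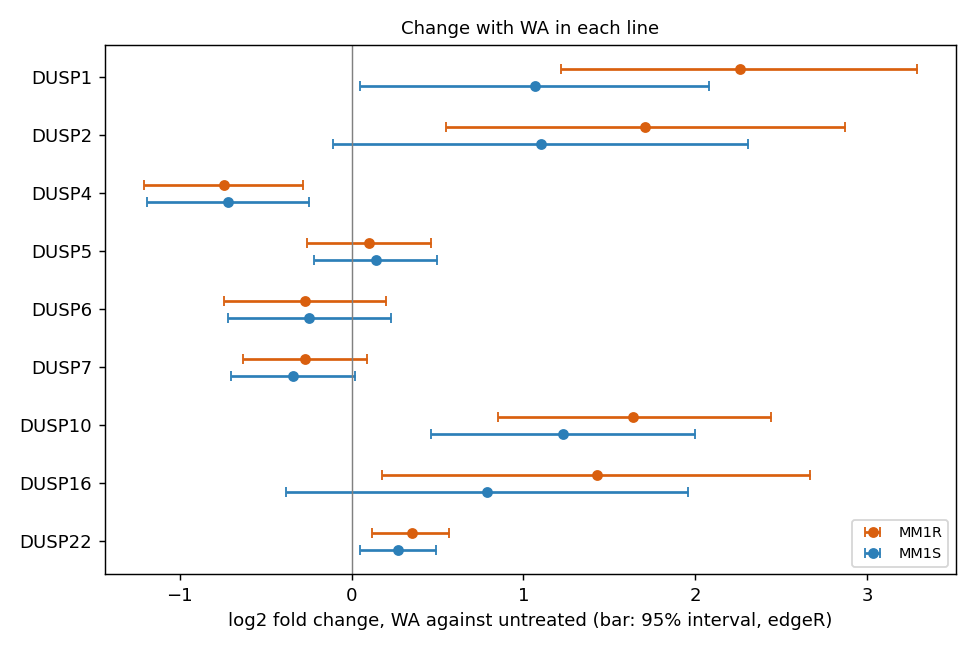
Log2 fold change of each gene with WA against untreated cultures in MM1R and MM1S, with the 95% interval of the edgeR fit (3 cultures a group). The intervals of DUSP1, DUSP4, DUSP10 and DUSP22 exclude 0 in both lines, and those of both lines overlap for every gene. The intervals are not adjusted for the number of genes tested, and of these genes DUSP10 alone passed the adjusted limit in MM1S. Of all 14085 genes, 3997 had an unadjusted p under 0.05 (edgeR) in MM1R and 3503 in MM1S.

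DUSP1 (MKP-1), which is the classical immediate early phosphatase for p38, JNK and ERK and a GC target gene, lies on chromosome 5 (172195099 to 172198198, minus strand, GRCh37) with 4 exons. Untreated MM1R cultures of passages 4, 6 and 7 held 26.9, 18.0 and 10.4 CPM, and the WA cultures 70.4, 47.0 and 147 CPM. All WA cultures lay above all untreated ones, and the passage 7 culture, lowest when untreated, was highest with WA. The rise was 4.77-fold (log2 fold change 2.26, SE 0.48, adjusted p = 0.00765). Untreated MM1S cultures of passages 16, 22 and 23 held 23.4, 20.6 and 11.6 CPM, and the WA cultures 50.5, 16.4 and 49.3 CPM. The MM1S groups overlapped, since the passage 22 culture with WA lay below its untreated partner. The log2 fold change in MM1S was 1.07 (SE 0.47), which did not pass (adjusted p = 0.177). The response in MM1R exceeded that in MM1S by 1.19 on the log2 scale, with a 95% interval from -0.23 to 2.61 (adjusted p = 1, and 0.000304 with no filter on low counts). Without both cultures of MM1R passage 7 the log2 fold change in MM1R was 1.41 (adjusted p = 0.117), whereas leaving out any single library kept the call.

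DUSP2 (PAC-1), an ERK and p38 phosphatase found mainly in blood cells, lies on chromosome 2 (96808908 to 96811179, minus strand). Untreated MM1R cultures of passages 4, 6 and 7 held 15.3, 16.9 and 16.8 CPM, and the WA cultures 25.9, 26.5 and 108 CPM. The groups did not overlap, and the passage 7 culture with WA stood apart from the other two. The log2 fold change was 1.71 (SE 0.54) with an adjusted p of 0.0501, just outside the limit. It passed in 14 of 26 alternative fits. In edgeR these included DESeq2's size factors (adjusted p = 0.0499), at least 10 reads in every library (0.0445), the 6 MM1R libraries alone (0.0335) and no filter (5.11e-21). With DESeq2 it did not pass (1.69, adjusted p = 0.0668). With passage as replicate block the log2 fold change was 1.38 and passed with edgeR (adjusted p = 0.0231) but not with DESeq2 (1.33, adjusted p = 0.125). Without the WA culture of passage 7 it was 0.71 (adjusted p = 0.336). In MM1S the untreated cultures held 9.53, 7.34 and 6.07 CPM and the WA cultures 14.7, 5.76 and 28.7 CPM. These overlapped, with a log2 fold change of 1.10 (adjusted p = 0.247).

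DUSP4 (MKP-2), a nuclear phosphatase for ERK and JNK, lies on chromosome 8 (29190581 to 29208201, minus strand) and was the only member that fell in MM1R. Its level went from 404, 353 and 369 CPM in the untreated MM1R cultures of passages 4, 6 and 7 to 269, 264 and 141 CPM with WA. The groups did not overlap, and passage 7 was lowest with WA. It fell by 0.74 on the log2 scale (SE 0.22, adjusted p = 0.0356). In MM1S the level went from 241, 181 and 182 CPM to 141, 131 and 95.3 CPM at passages 16, 22 and 23, again without overlap. The log2 fold change of -0.72 (SE 0.22) had an adjusted p of 0.0506, and it passed with passage as replicate block (adjusted p = 0.00477). The difference between the lines was -0.02 (95% interval -0.68 to 0.63). The call in MM1R was lost without the untreated culture of passage 4, 6 or 7 (adjusted p = 0.0764, 0.0743 and 0.0799) and without the WA culture of passage 7 (log2 fold change -0.47, adjusted p = 0.112).

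DUSP5, a nuclear phosphatase that acts on ERK alone and holds it in the nucleus, lies on chromosome 10 (112257665 to 112271291, plus strand). It was the most abundant member and moved little with WA. MM1R cultures of passages 4, 6 and 7 held 575, 548 and 477 CPM untreated and 658, 666 and 388 CPM with WA, so that passage 7 was lower with WA where the others were higher. The change of 0.10 on the log2 scale did not pass (SE 0.17, adjusted p = 0.768). In MM1S the range was 293 to 323 CPM untreated and 317 to 344 CPM with WA, with a log2 fold change of 0.14 (adjusted p = 0.667). The 95% intervals ran from -0.26 to 0.46 in MM1R and from -0.22 to 0.50 in MM1S.

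The cytoplasmic ERK phosphatases DUSP6 (MKP-3, chromosome 12, 89741012 to 89746278, minus strand) and DUSP7 (chromosome 3, 52082935 to 52090587, minus strand) were lower with WA in all 3 passages of both lines, without passing the test. DUSP6 ranged from 61.9 to 99.6 CPM in untreated MM1R and from 60.5 to 75.7 CPM with WA, with a log2 fold change of -0.27 (adjusted p = 0.473). In MM1S it ranged from 38.1 to 63.3 CPM and from 33.5 to 56.5 CPM (-0.25, adjusted p = 0.556). The groups of DUSP6 overlapped in both lines. DUSP7 ranged from 71.2 to 79.4 CPM in untreated MM1R and from 51.2 to 70 CPM with WA, which did not overlap (-0.27, adjusted p = 0.32). In MM1S it ranged from 41.2 to 54.2 CPM and from 30.2 to 47.3 CPM, which did (-0.34, adjusted p = 0.23, and 0.0437 with passage as replicate block).

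DUSP10 (MKP-5), which prefers JNK and p38, lies on chromosome 1 (221874766 to 221915431, minus strand) and was the member that rose in both lines. Untreated MM1R cultures of passages 4, 6 and 7 held 8.49, 5.10 and 2.10 CPM, and the WA cultures 15.3, 13.2 and 21.0 CPM. As for DUSP1, the passage 7 culture was lowest untreated and highest with WA. The rise was 3.13-fold (log2 fold change 1.64, SE 0.37, adjusted p = 0.00997). In MM1S of passages 16, 22 and 23 the level went from 6.42, 9.61 and 5.82 CPM to 19.1, 12.5 and 19.7 CPM. These groups did not overlap either, and passage 22 moved least. The rise in MM1S was 2.35-fold (log2 fold change 1.23, SE 0.36, adjusted p = 0.0441), and the difference between the lines was 0.41 (95% interval -0.68 to 1.51). The call in MM1R was lost without both cultures of passage 6 (log2 fold change 1.77, adjusted p = 0.0671) or of passage 7 (1.08, adjusted p = 0.0754). In MM1S it was lost without the untreated culture of passage 16, 22 or 23 (adjusted p = 0.0988, 0.0587 and 0.152) or the WA culture of passage 16 or 23 (0.0986 and 0.124). It was also lost without the untreated MM1R culture of passage 6 (0.0673) and the WA culture of MM1R passage 4 or 6 (0.0592 and 0.0594), and under a replicate block with DESeq2 (0.112).

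DUSP16 (MKP-7, chromosome 12, 12626216 to 12715797, minus strand) and DUSP8 (chromosome 11, 1575281 to 1593501, minus strand) also prefer JNK and p38 and were scarcely transcribed. DUSP16 had 9, 5 and 2 reads in untreated MM1R of passages 4, 6 and 7 and 11, 21 and 10 reads with WA. In MM1S of passages 16, 22 and 23 it had 3, 8 and 14 reads untreated and 9, 19 and 13 with WA. The MM1R groups did not overlap and the MM1S groups did. At this depth the log2 fold changes of 1.43 (SE 0.58, adjusted p = 0.121) and 0.79 (SE 0.55, adjusted p = 0.413) could not be told from the spread, although that of MM1R passed narrowly with passage as replicate block in edgeR (adjusted p = 0.0496) and not in DESeq2 (1.5, adjusted p = 0.158). DUSP8 had 0 reads in all untreated MM1R cultures and at most 1 read with WA, and a further entry of the gene in the table (DUSP8_1) had 0 to 10 reads. With at most 3 reads a library in each group no fold change is given.

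DUSP22 (JKAP), an atypical phosphatase that promotes JNK activation and is rearranged in some T cell lymphomas, lies on chromosome 6 (291630 to 351355, plus strand) with 7 exons. It showed the smallest change among those called. MM1R cultures of passages 4, 6 and 7 held 201, 199 and 183 CPM untreated and 243, 246 and 251 CPM with WA. MM1S cultures of passages 16, 22 and 23 held 182, 229 and 205 CPM untreated and 234, 248 and 262 CPM with WA. In neither line did the groups overlap. The rise was 1.27-fold in MM1R (log2 fold change 0.35, SE 0.10, adjusted p = 0.0404), and the log2 fold change in MM1S was 0.27 (SE 0.10, adjusted p = 0.115, and 0.026 with passage as replicate block). The call in MM1R was lost without any of the 6 MM1R libraries, with an adjusted p of 0.053, 0.129 and 0.13 without the untreated culture of passage 4, 6 and 7 and of 0.0826, 0.0784 and 0.0897 without the WA culture. It was also lost without the untreated MM1S culture of passage 23 (0.0645) or the WA culture of MM1S passage 22 or 23 (0.0512 and 0.056).

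The size of the response followed the passage in several members at the same time, but not in all. Within passages 4, 6 and 7 of MM1R, the log2 change of DUSP1 was 1.37, 1.36 and 3.76, that of DUSP2 0.74, 0.63 and 2.65, and that of DUSP10 0.81, 1.29 and 3.05. DUSP4 changed by -0.59, -0.42 and -1.39 in the same pairs. Passage 7 thus moved furthest in all 4 genes, upwards or downwards. Within passages 16, 22 and 23 of MM1S, DUSP1 changed by 1.10, -0.32 and 2.04, DUSP2 by 0.60, -0.32 and 2.15, DUSP10 by 1.5, 0.36 and 1.67, and DUSP4 by -0.77, -0.47 and -0.93. Passage 22 moved least, and DUSP1 and DUSP2 were slightly lower there with WA. DUSP7 and DUSP22 also moved furthest at passage 7 and least at passage 22, whereas DUSP6 and DUSP16 did not. DUSP6 changed by -0.51, -0.19 and -0.03 in MM1R and by -0.16, -0.38 and -0.18 in MM1S. DUSP16, with few reads, changed by 0.17, 1.12 and 0.85 in MM1R and by 0.59, 0.73 and 0.02 in MM1S. FOSB, an AP-1 subunit and immediate early gene, changed by 2.50, 1.80 and 4.26 in MM1R and by 1.40, 0.04 and 3.14 in MM1S. DNAJB1, a heat shock co-chaperone, changed by 4.8, 4.79 and 6.13 in MM1R and by 4.61, 3.82 and 5.85 in MM1S. Passage 7 of MM1R and passage 23 of MM1S also stood highest, and passage 22 lowest, in FOSB and DNAJB1. FOSB was also the gene most like DUSP1 over these same libraries (Pearson's r 0.96). Not all stress genes followed this order. SRXN1 changed by 0.73, 1.01 and 0.29 in MM1R and by 0.82, 1.24 and 0.95 in MM1S, with passage 7 lowest and passage 22 highest. What set the passages apart was not tested.

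**Figure D3:**
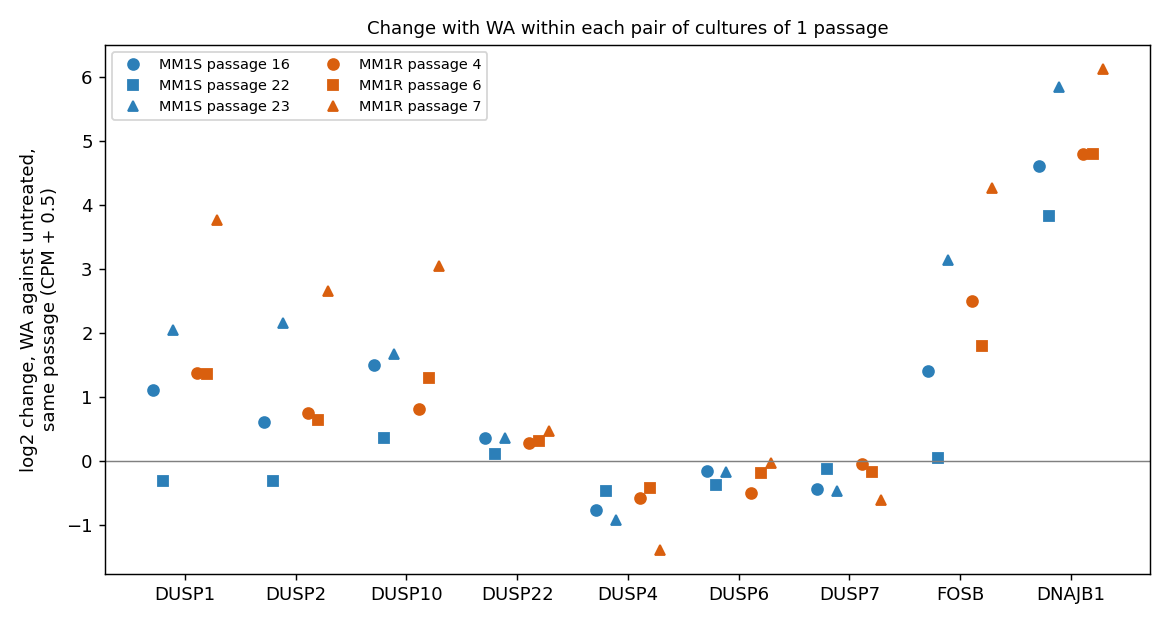
Log2 change with WA within each pair of cultures of the same passage (CPM with 0.5 added), for 7 phosphatase genes and the stress genes FOSB and DNAJB1; blue is MM1S and orange MM1R. MM1R passage 7 (orange triangles) lies furthest from 0 for DUSP1, DUSP2, DUSP10 and DUSP4, and MM1S passage 22 (blue squares) lies near or below 0 for DUSP1 and DUSP2. For DUSP6 the order differs, with passage 7 nearest to 0 in MM1R and passage 22 furthest from 0 in MM1S.

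The next question was whether the members differed between GC-resistant MM1R and GC-sensitive MM1S. At the limits the study used for this comparison, an adjusted p of 0.01 with a log2 fold change above 1 in size, 0 of 9 members passed in untreated cells, where 2.97% of all genes did. With WA 0 of 9 members passed, against 3.04% of all genes. The members with an unadjusted p under 0.05 numbered 4 in untreated cells (DUSP4, DUSP5, DUSP6 and DUSP7), where 25.9% of all genes had one, and 6 with WA, where 28% did. DESeq2 called 0 members as well. At an adjusted p of 0.05 with no limit on the fold change, 3 members (DUSP4, DUSP5 and DUSP7) were higher in MM1R in both conditions, where 11.9% of all genes passed in untreated cells and 12% with WA. The median log2 fold change of the 9 members was 0.63 in untreated cells and 0.70 with WA, against 0.01 and -0.01 over all genes.

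The members higher in MM1R at that limit act on ERK, and DUSP4 acts on JNK as well. DUSP1, DUSP2 and DUSP6 also act on ERK and did not pass it, so that this trait does not set the members apart. DUSP5 held 477 to 575 CPM in untreated MM1R against 293 to 323 CPM in untreated MM1S, with no overlap (log2 fold change 0.81, SE 0.17, adjusted p = 0.00658). DUSP4 held 353 to 404 CPM against 181 to 241 CPM (0.90, SE 0.22, adjusted p = 0.0169), and DUSP7 held 71.2 to 79.4 CPM against 41.2 to 54.2 CPM (0.63, SE 0.17, adjusted p = 0.0253). None of these groups overlapped. DUSP6 was 0.63 higher on the log2 scale (SE 0.22, adjusted p = 0.083), with ranges that met at 61.9 and 63.3 CPM. DUSP2 held 15.3 to 16.9 CPM in MM1R and 6.07 to 9.53 CPM in MM1S, also without overlap, but its log2 fold change of 1.10 had an adjusted p of 0.24 in the fit of all 12 libraries and of 0.00516 in a fit of the 6 untreated libraries. DUSP1 (0.00, 95% interval -1.03 to 1.02), DUSP10 (-0.47, -1.27 to 0.33), DUSP16 (-0.53, -1.86 to 0.79) and DUSP22 (-0.08, -0.31 to 0.14) did not pass at either limit.

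After WA the order was similar for DUSP2, DUSP4, DUSP5, DUSP6 and DUSP7, but not for DUSP1, whose log2 fold change was 0.00 in untreated cells. DUSP5 was 0.77 higher in MM1R on the log2 scale (SE 0.17, adjusted p = 0.00931), DUSP4 0.87 (SE 0.22, adjusted p = 0.0194) and DUSP7 0.70 (SE 0.17, adjusted p = 0.0154). Without the WA culture of MM1R passage 7, DUSP4 (1.14, adjusted p = 0.00115) and DUSP5 (1.01, adjusted p = 0.000187) passed both limits of the comparison. DUSP1 was 1.19 higher (SE 0.46, adjusted p = 0.112) and DUSP2 1.71 (SE 0.54, adjusted p = 0.0553). The ranges of MM1R and MM1S overlapped for both (47 to 147 against 16.4 to 50.5 CPM and 25.9 to 108 against 5.76 to 28.7 CPM). Those of DUSP4 also overlapped, meeting at 141 CPM. DUSP10 (-0.05), DUSP16 (0.10) and DUSP22 (-0.01) lay near 0. The comparisons of the lines and those of WA share their libraries, so that they are not independent of each other.

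**Figure D4:**
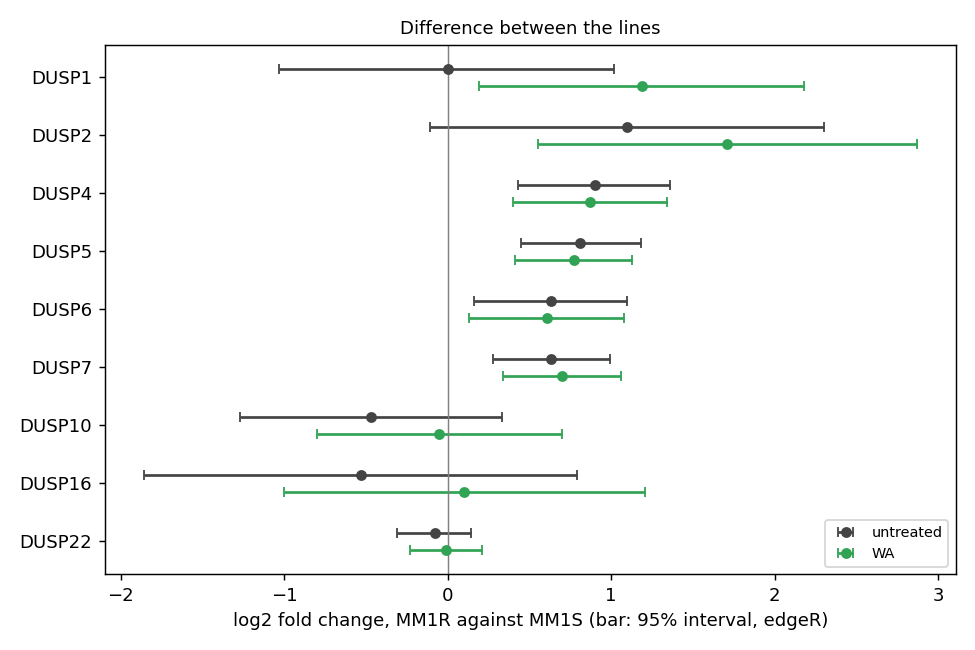
Log2 fold change of each gene in MM1R against MM1S, untreated and with WA, with the 95% interval of the edgeR fit (3 cultures a group). The intervals of DUSP4, DUSP5, DUSP6 and DUSP7 lie above 0 in both conditions, while those of DUSP10, DUSP16 and DUSP22 include 0. They are not adjusted for the number of genes tested, and no member passed the limits of the study.

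Over the 12 libraries the levels of some members varied together, given here as a description, since the libraries share lines, treatments and passages. Pearson's r of log2 CPM among DUSP4, DUSP5, DUSP6 and DUSP7 lay between 0.60 and 0.82. DUSP1 went with DUSP2 (0.82) and DUSP10 (0.83), and DUSP22 with DUSP10 (0.89) and DUSP16 (0.80). DUSP2 was only weakly related to DUSP10 (0.43), DUSP22 (0.39) and DUSP16 (0.10), and DUSP1 to DUSP16 (0.35). DUSP4 ran against DUSP10 (-0.68) and DUSP22 (-0.71). Among 12314 other genes with a mean of at least 1 CPM, those most like DUSP1 were FOSB (0.96), LINC01004 (0.96) and OLMALINC (0.95). For DUSP10 they were SWT1 (0.98), BTN2A1 (0.97) and DAAM1 (0.97), and for DUSP4 they were RCSD1 (0.98), SLC35C1 (0.97) and PPP1R9B (0.96). For DUSP22 they were ADM2 (0.98), SLC7A11 (0.98), the cystine transporter, and ALDH1L2 (0.97), a mitochondrial folate enzyme.

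**Figure D5:**
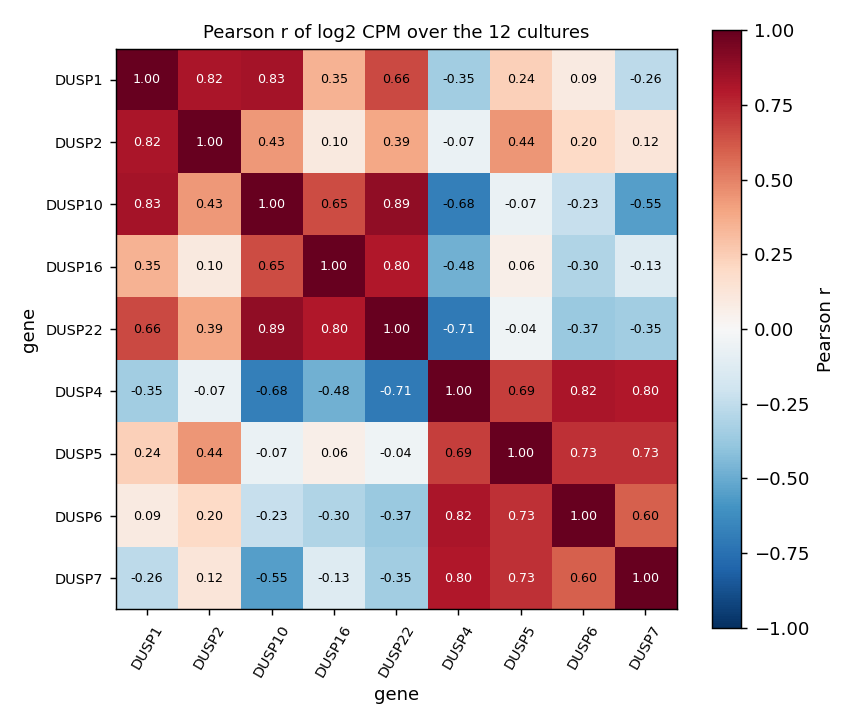
Pearson's r of log2 CPM between the 9 testable phosphatase genes over the 12 cultures, from blue (negative) to red (positive). DUSP4, DUSP5, DUSP6 and DUSP7 have r from 0.60 to 0.82 with each other, and DUSP10 goes with DUSP22 (0.89) and DUSP1 (0.83), while DUSP2 and DUSP16 (0.10) are hardly related.

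The MAPK genes, whose products include the ERK, JNK and p38 substrates of these phosphatases, did not pass the test. Of 13 MAPK genes, 11 were tested and 0 passed in either line. Over all genes, to be set beside the gene lists below as well, 14.0% passed in MM1R and 10.5% in MM1S. MAPK3 (ERK1) had a log2 fold change of -0.13 in MM1R and -0.12 in MM1S. MAPK8 (JNK1) had 0.12 and 0.09, MAPK9 (JNK2) -0.16 and -0.09, and MAPK14 (p38 alpha) -0.06 and -0.09. The adjusted p of these 4 genes lay between 0.475 and 0.796. With passage as replicate block MAPK6 was higher in both lines and MAPK13 lower in MM1R.

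Among the activators of MAPK, 1 of 7 MAPK kinase genes fell in both lines, MAP2K7, which activates JNK (log2 fold change -0.55, adjusted p = 0.00185 in MM1R and -0.40, adjusted p = 0.0156 in MM1S). With passage as replicate block (edgeR) MAP2K1 and MAP2K2 fell in both lines as well. With that block 29.1% of all genes passed in MM1R and 24.1% in MM1S. Over the 27 tested genes of RAS, RAF and the MAP3K tier the median change was 0.12 (MM1R) and 0.10 (MM1S) on the log2 scale. In MM1R the exchange factor SOS1 (0.55, adjusted p = 0.025) and BRAF (0.48, adjusted p = 0.0356) rose and ARAF (-0.33, adjusted p = 0.0441) fell. In MM1S MAP3K6 rose (0.88, adjusted p = 0.0371) and NRAS fell (-0.49, adjusted p = 0.0291). ARAF is named after its value was seen. Without both cultures of MM1R passage 7, none of SOS1, BRAF and ARAF passed in MM1R. With passage as replicate block MAP3K6 and NRAS passed in MM1R as well, and SOS1, BRAF and ARAF in MM1S. SOS1 did so with edgeR and not with DESeq2 (adjusted p = 0.0538). Among 10 kinases downstream of MAPK, MKNK2, which phosphorylates the translation factor eIF4E, rose in both lines (0.85, adjusted p = 0.00245 and 0.92, adjusted p = 0.00171), and MKNK1 rose in MM1S (0.63, adjusted p = 0.00646). With passage as replicate block in edgeR MKNK1 passed in MM1R as well (0.40, adjusted p = 0.0143).

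Of 19 tested feedback and output genes of ERK, 1 rose and 2 fell in each line. Over all genes, 14.0% passed in MM1R and 10.5% in MM1S. The inhibitor SPRY4 rose (1.96, adjusted p = 0.011 in MM1R and 2.07, adjusted p = 0.016 in MM1S) while its relative SPRY1 fell (-1.56, adjusted p = 0.0265 and -1.56, adjusted p = 0.0308). CCND1, the cyclin of the G1 phase, fell by 1.39 and 0.79 on the log2 scale (adjusted p = 0.00068 and 0.0212). The medians of the 19 genes were 0.10 in MM1R and -0.07 in MM1S. Without both cultures of MM1R passage 7, CCND1 alone passed in MM1R. With the replicate block (edgeR) 7 rose and 5 fell in MM1R, and 3 rose and 4 fell in MM1S. The shares of all genes that passed there were 29.1% and 24.1%.

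Further genes of the phosphatase families also changed. Over all genes, 7.55% rose in MM1R and 6.25% in MM1S. Of 16 other dual-specificity phosphatase genes tested, 3 rose in both lines and 0 fell. These were DUSP3 (VHR, an atypical ERK and JNK phosphatase; 3.49-fold, adjusted p = 0.000193 in MM1R and 3.56-fold, adjusted p = 0.000107 in MM1S), the cofilin phosphatase SSH3 (4.68-fold, adjusted p = 0.0241 and 4.65-fold, adjusted p = 0.0297) and CDC14A (2.39-fold, adjusted p = 0.0106 and 2.03-fold, adjusted p = 0.0297). Only DUSP3 of these passed in MM1R without the passage 7 cultures. The fold of SSH3 depends on how low counts are treated. With 0.5 CPM added, its log2 change within passages was 0.91, 1.18 and 2.15 in MM1R and 1.88, 0.85 and 1 in MM1S. The fitted log2 fold changes were 2.23 and 2.22. Between the untreated lines DUSP26 was higher in MM1R (log2 fold change 3.24, adjusted p = 0.00175) and DUSP3 lower (-1.27, adjusted p = 0.00219), the latter not past the limit without any 1 of 5 libraries. Of 10 other tested phosphatases that act on MAPK, PPP2CB, a catalytic subunit of PP2A, rose in both lines (0.69, adjusted p = 0.000429 and 0.74, adjusted p = 0.000251). In MM1R PTPRR rose (1.12, adjusted p = 0.044), while PTPN7 (-0.42, adjusted p = 0.0219) and the PP2A subunit PPP2R2A (-0.42, adjusted p = 0.0136) fell, and PPP2CB alone passed without the passage 7 cultures. With passage as replicate block in edgeR PTPN7 and PPP2R2A also passed in MM1S (adjusted p = 0.0164 and 0.0207). With the block in DESeq2 PTPRR no longer passed in MM1R (adjusted p = 0.0598).

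The stress genes, a list chosen with earlier results of these data known, rose in both lines. Of 18 genes, 14 rose in MM1R and 10 in MM1S, and 0 fell, with medians of 2.85 and 1.83. HMOX1, the NRF2 target that degrades haem, rose by 6.62 on the log2 scale in MM1R and 6.92 in MM1S, the co-chaperones DNAJB1 by 5.40 and 4.91 and BAG3 by 5.21 and 4.55, and the small heat shock protein HSPB1 by 4.06 in both. FOSB rose by 3.33 in MM1R (adjusted p = 0.00388), and its log2 fold change of 1.77 in MM1S did not pass (adjusted p = 0.0785). With passage as replicate block FOSB passed in MM1S in edgeR (1.71, adjusted p = 0.0331) but not in DESeq2 (1.78, adjusted p = 0.152). Without both cultures of MM1R passage 7, 9 of the 18 rose in MM1R.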

How the data were processed

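RNA was sequenced in 12 libraries, 3 cultures in each of 4 groups, which were set from the line, treatment and passage of the sample labels. Per the submitters' processing notes reads were checked with FastQC 0.11.5 and mapped with STAR 2.7.3a to hg19. The authors deposited raw counts of reads per gene with no normalization, which were used here, and a table of normalized signal (counts divided by DESeq2 size factors), which was not used. The annotation and strand setting of the counting are not given in the sources used here, so that reads shared with antisense genes or with the pseudogenes of DUSP5 and DUSP8 cannot be set apart. Gene positions are those of GENCODE on GRCh37 and promoter sequences those of RefSeq.

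Genes were kept by filterByExpr (minimum count 10), which left 14085 of 43735, libraries were scaled by TMM, and the quasi-likelihood test of edgeR 4.0.16 (R 4.3.3) was run in 1 fit of 4 groups with Benjamini-Hochberg adjustment over all genes. WA and its difference between the lines were called at an adjusted p of 0.05, and the lines at 0.01 with a log2 fold change of 1 in size. DESeq2 1.42.0, other filters and scalings, passage as replicate block and leaving out libraries were alternatives. The tests were checked on simulated counts with the same spread for every gene and no differences between passages. The check therefore does not cover the passage differences of these libraries. Depth was even (17625110 to 19368343 reads), and groups of 3 limit the precision. Overlap of groups was examined for the members only, so that no share over all genes stands beside it. The reads carry no molecular identifiers, and read limits cover counting error only.

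Whether passage pairs the cultures was checked by correlating deviations from the group means. The shared passage is in the labels, and r was 0.43, 0.22 and 0.25 for MM1R passages 4, 6 and 7 and 0.74, 0.26 and 0.49 for MM1S passages 16, 22 and 23. For passage 22 the WA culture of passage 23 (0.35) was closer. Calls come from the fit without passage, as the methods of the study name no such term. Values with passage as replicate block stand beside the members whose call it changes. The members, lists and tests were chosen with earlier results of these data known. Named genes are the members, the 3 genes most like each called member, up to 4 called genes of each list with the largest change, and 4 MAPK genes. Some genes of these lists are not reported here.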

Additional observations from a re-analysis of the deposited data

How the results depend on the processing

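Of 1119 refits of single member results, 971 kept their sign and side of the limit, 45 passed in addition, 43 no longer passed and 60 changed sign, all in results that were not called in any fit that changed their sign. Leaving out 1 library or both cultures of 1 passage (the latter chosen after seeing the data) took the genes called for WA to 639 to 2645 in MM1R (1973 with all) and 371 to 1752 in MM1S (1476), those between the lines to 188 to 755 untreated (419) and 194 to 817 with WA (428), and the members called to 0 to 5, 0 to 2, 0 to 1 and 0 to 2. Leaving out a library also removes precision. With a replicate block the calls were 4094 (edgeR) and 3418 (DESeq2) in MM1R and 3399 and 2917 in MM1S, and the members called in MM1S 4 and 3 (1 without); it changed no other member's call than those given above. No paired analysis was possible because the lines share no passage, where MM1R was compared with MM1S. An adjusted p of 0.01 gave 812 genes and 2 members in MM1R and 556 and 0 in MM1S. MM1S had 4 members with no filter and 2 with DESeq2's size factors, with DESeq2 or with the 6 libraries compared. DUSP22 in MM1R did not pass with DESeq2's size factors (adjusted p = 0.0512), no filter (0.178) or its 6 libraries (0.0593). Between the lines no filter gave 811 genes and 1 member untreated and 819 and 2 with WA, at least 10 reads everywhere 234 and 222 genes, an adjusted p of 0.05 alone 1681 and 1690 genes with 3 members each, and the 6 untreated libraries 1 member (DUSP2). The difference in response gave 11 genes and 1 member (DUSP1) with no filter, 1 gene with DESeq2 and 6 with its block. The cause of these shifts was not tested.

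Changes of sign on leaving out libraries were, as log2 ranges, DUSP1 (-0.38 to 0.28), DUSP16 (-1.08 to 0.03) between the untreated lines; DUSP10 (-0.24 to 0.10), DUSP16 (-0.29 to 0.40) and DUSP22 (-0.06 to 0.03) between the lines with WA; DUSP2 (-0.39 to 1.43), DUSP4 (-0.18 to 0.25), DUSP5 (-0.16 to 0.20), DUSP6 (-0.20 to 0.17), DUSP7 (-0.09 to 0.25), DUSP10 (-0.14 to 1.01) and DUSP22 (-0.01 to 0.15) for the difference in response; DUSP5 (-0.02 to 0.34) and MAPK14 (-0.11 to 0.00) for WA in MM1R; and MAPK9 (-0.23 to 0.03) for WA in MM1S. With at least 10 reads in every library DUSP1 between the untreated lines was 0.00, DUSP22 between the lines with WA 0.02 and DUSP4 in the difference 0.00, and DUSP1 was 0.01 in the 6 untreated libraries. Of the other genes named for WA, DUSP3, PPP2CB, MKNK2, HMOX1, DNAJB1, BAG3 and HSPB1 passed in both lines, and MAP2K7 and CCND1 in MM1R, without any single library, whereas calls were lost without 9 of 12 libraries for PTPRR, 10 for ARAF and 7 for BRAF in MM1R and without 1 to 6 for SOS1, SPRY1, SPRY4, SSH3, CDC14A, PTPN7 and PPP2R2A in MM1R and NRAS, MAP3K6, MAP2K7, CCND1, SPRY1, SPRY4, SSH3 and CDC14A in MM1S.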
